A study of Oncorhynchus mykiss with 6 samples.

Results

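miR-33, miR-103 and miR-107 are small regulatory RNAs known for their part in the control of fat and sugar metabolism, and their counts were examined in the liver of rainbow trout at 18 °C and after warming to 24 °C. The members were chosen by name. Every entry of the deposited files whose name, without its final -x, -y or -z, was miR-33, miR-103 or miR-107 was taken, which gave 6 of 2730 names. They stand for 5 of 1685 distinct RNAs, because miR-103-y and miR-107-y are listed with the same bases and were counted once. There were 3 control libraries from fish held at 18 °C and 3 heat libraries from fish whose water was warmed from 18 °C by 1 °C per 24 h until it reached 24 °C. All fish are labelled as 150 days old and female, with a mean weight of 200 ± 5.5 g, and all were kept at 18 °C for 7 days and then for another 7 days in tanks of 500 L. The labels mention 12 fish, which can be read as the number in all or per temperature, and do not say which fish went into which library. The p-values therefore measure the spread between these libraries, which may be technical.

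A microRNA is cut from a folded precursor as a short duplex, and either strand can be loaded into the silencing complex, where bases 2 to 8, the seed, find target messages. In vertebrates the miR-33 precursor lies in an intron of the SREBP genes, which code for regulators of sterol and fatty acid synthesis, and in mammals its guide strand lowers the cholesterol exporter ABCA1 and several genes of fatty acid oxidation. The precursors of miR-103 and miR-107 lie in introns of the pantothenate kinase genes, whose products start the synthesis of coenzyme A, and in mouse liver these miRNAs dampen insulin signalling through caveolin-1. The guide strands of miR-103 and miR-107 are nearly identical in vertebrates.

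The 5 RNAs are shown because they tell which names can be separated by sequence and which cannot. They are written 5′ to 3′ in DNA letters as in the deposited files, with the seed in capitals.
miR-33-x: gTGCATTGtagttgcattgca
miR-33-y: cAATGTTCctgcagtgcaaga
miR-103-y and miR-107-y: aGCAGCATtgtacagggctatc
miR-107-x: aGCTTCTTtacagtgttgcct
miR-103-x: aGCCTCTTtatgatgctgcct

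The seed of each of the 5 RNAs was shared with 0 of the other 1684 distinct RNAs, and 0 of these lay within 2 edits of a member. The nearest relatives among the members themselves were miR-103-x and miR-107-x, at an edit distance of 5. The names miR-103-y and miR-107-y had close but unequal counts, with miR-107-y higher by 25 to 52 counts per library, or by 0.174% to 0.375% of its own count. The files do not say how reads were shared out between names of the same sequence, so the counts of miR-103-y and miR-107-y cannot be told apart here. The listed bases were not compared with reference sequences of miR-103 and miR-107. The count of miR-107-y, the higher of both, was used for the shared RNA. The files do not define the endings x and y either. By predicted duplex, 16 positions of miR-33-x pair with miR-33-y, at -20.7 kcal/mol. miR-107-x and miR-103-x pair with the shared y RNA at 17 positions each, at -20.9 and -23.5 kcal/mol.

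Beside these RNAs stands the family whose 5′ end overlaps that of miR-103 and miR-107. Bases 1 to 6 of the shared y RNA are bases 2 to 7 of miR-15-x, miR-16-x, miR-195-x, miR-457-x and miR-497-x, so that the seeds are shifted by 1 base and are not the same. The most abundant of them are printed to show the shift.
miR-16-x: tAGCAGCAcgtaaatattggag
miR-15-x: tAGCAGCAcgtcatgatttgt
miR-457-x: tAGCAGCAcatcattactggta

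Total counts over all names were 9267658 to 12778484 per library. Levels below are counts per 1000000 (CPM) of a library size adjusted for composition by TMM, a scaling that rests on the bulk of the RNAs, and each distinct RNA entered once. The labelled tissue was reflected in its markers: the 9 hepatocyte RNAs summed to 234437 to 386572 CPM, while 9 retina and neural RNAs, checked because a protocol field speaks of retina, summed to 55.2 to 106 CPM. Control replicate 2 and heat replicate 1 stood apart from the other libraries, with TMM factors of 1.21 and 1.22 against 0.883 to 0.922. Their hepatocyte sums were 234437 and 243079 CPM against 355659 or more. CPM are divided by library sizes that include the TMM factors. Part of this gap therefore comes from the scaling, and it is not a sign independent of the factors. For control replicate 2 the low sum rested on miR-122-x, the most abundant RNA of the list. The other 8 hepatocyte RNAs summed to 80835 CPM in control replicate 2, 53276 CPM in heat replicate 1 and 68266 to 88497 CPM elsewhere. In bulk tissue, fewer cells of a type and less RNA per cell cannot be told apart. Results of the members that rest on these libraries are given with and without them. For single RNAs beside the members, fits without these libraries are not given.

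In both groups the shared miR-103-y/miR-107-y RNA was by far the most abundant member, followed by miR-33-y, miR-33-x, miR-107-x and miR-103-x in order of the mean over the libraries. The mean levels were 1231, 120.0, 61.6, 5.58 and 0.381 CPM, and the ranks 42, 92, 112, 186 and 295 among 514 distinct RNAs of known families. miR-33-x and miR-33-y are neighbours in this order whose ranges overlap, from 35.4 to 112 CPM and from 77.2 to 162 CPM. The shared y RNA stood next to miR-221-z at 1312 CPM and miR-15-x at 1229 CPM, whose ranges of 857 to 2145 and 724 to 1647 CPM overlap its own.

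**Figure D1:**
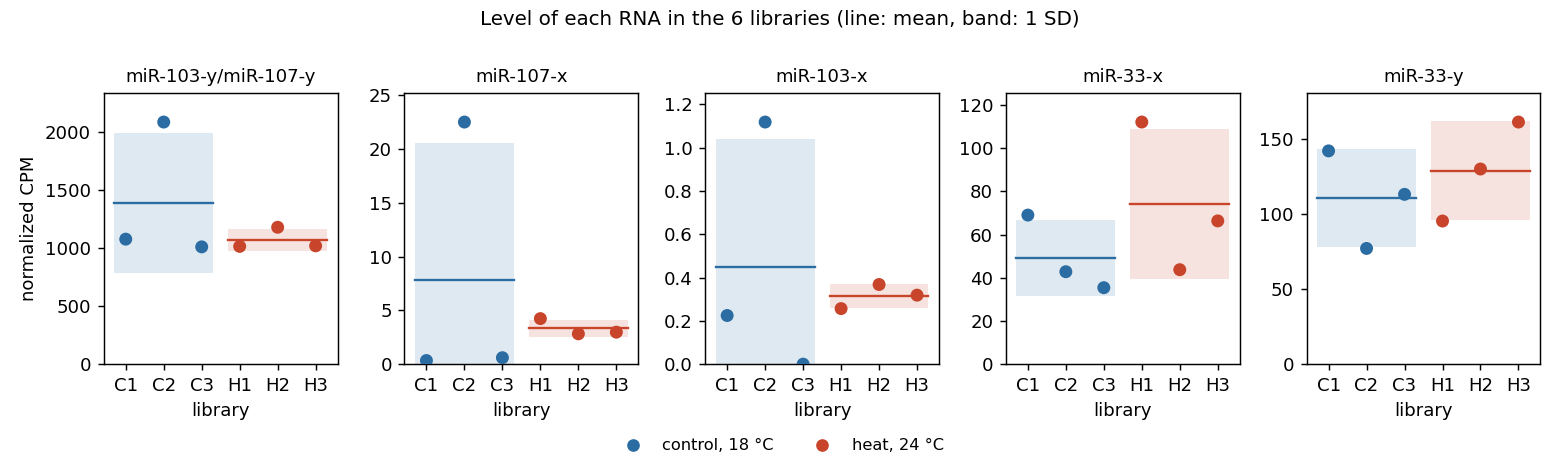
Normalized CPM (y axis, from 0) of the 5 RNAs in control libraries C1 to C3 (18 °C) and heat libraries H1 to H3 (24 °C). Points are libraries, lines are group means and bands are 1 SD (n = 3). C2 is the highest library for the 3 RNAs of miR-103 and miR-107, and H1 is the highest for miR-33-x.

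Between 24 and 18 °C, none of the 4 members that could be tested passed. The test was the edgeR quasi-likelihood test over 476 distinct RNAs with Benjamini-Hochberg adjustment, which called 0 RNAs (0%) at an adjusted p under 0.05. An unadjusted p under 0.05 was reached by 10 RNAs, of which 4 were fitted above and 6 below the controls, and by 0 of the members. The DESeq2 test of the same RNAs called 1, which is not a member. Heat libraries lay wholly above or wholly below the controls for 32 of the 476 RNAs (6.72%) and for 0 of the 4 tested members. The fifth, miR-103-x, was below the count filter.

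The shared miR-103-y/miR-107-y RNA, the guide strand of this pair, had counts at 18 °C of 9593, 29864 and 10100 (replicates 1 to 3) and at 24 °C of 15825, 9623 and 9603. On the normalized scale these were 1077, 2086 and 1011 CPM in control and 1015, 1179.5 and 1019.7 CPM in heat. Control replicate 2 was the only high library, and the other 5 lay within 1011 to 1179.5 CPM with no order by temperature. The group means were 1391 ± 603 CPM at 18 °C against 1071 ± 93.7 CPM at 24 °C (SD, n = 3). The fitted log2 fold change was -0.38 ± 0.32 (SE, with a 95% interval from -1.12 to 0.37, edgeR adjusted p = 1.00). Without control replicate 2 the log2 fold change was 0.036, and without control replicate 2 and heat replicate 1 together it was 0.081. A lower level at 24 °C was thus seen only while control replicate 2 was in the comparison.

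The height of control replicate 2 can be read against other RNAs. Its level of the shared y RNA was 1.77 times the highest of the other 5 libraries. Of 242 RNAs of known families tested, 29 had a ratio at least as high in that library, and 38 (15.7%) had a ratio over 1.5. Of the 7 marker lists, 5 had their highest sum in control replicate 2. The leukocyte sum was 33898 CPM there against 16574 to 18894 CPM in the other 5 libraries, the erythrocyte sum 6973 against 3859 to 5776 CPM, and the pancreas sum 360.1 against 149 to 295 CPM. For muscle it was 31.2 against 14.6 to 27.3 CPM, and for retina and neural RNAs 106 against 55.2 to 91.9 CPM. The hepatocyte list and the endothelial and stromal list had their lowest sum there, the latter with 109501 CPM against 110934 to 180805 CPM. These low sums rested on the most abundant RNA of each list, miR-122-x and miR-199-x. The other 9 endothelial and stromal RNAs summed to 68453 CPM in control replicate 2 and to 52869 to 72453 CPM elsewhere. The leukocyte sum was carried by miR-146-x: the other 10 leukocyte RNAs, 2 of which were at 0 in at least 1 library, summed to 2651 CPM in control replicate 2 and to 977 to 3011 CPM elsewhere, and 4 of all 11 peaked in control replicate 2. The erythrocyte sum was carried by miR-451-x: the other 4 RNAs summed to 1389 CPM in control replicate 2 and to 1014 to 1847 CPM elsewhere. Of all 5 erythrocyte RNAs, 3 peaked in control replicate 2. In the pancreas list 4 of 5 RNAs peaked there, among them miR-216-y and miR-375-x at only 0.14 and 2.58 CPM. At least 1 library was at 0 for 2 of the 5 pancreas RNAs, 2 of 6 muscle RNAs and 3 of 9 retina and neural RNAs. The part of other cell types in the level of miR-103 and miR-107 was not tested.

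The RNA of a known family with the most similar pattern over the 6 libraries was miR-146-x, which is induced in inflammatory signalling in mammals. Likeness was measured as the root-mean-square distance between log2 CPM values, each centred on its own mean, and was 0.095 for miR-146-x against a median of 0.50 over 201 RNAs compared. miR-146-x measured 14991, 31247 and 15303 CPM in control and 16022, 15597 and 16132 CPM in heat, again with control replicate 2 as the only high library. miR-142-x, a leukocyte marker, did not follow it, with 2544, 2270 and 1085 CPM at 18 °C and 2406, 804 and 1205 CPM at 24 °C. Next in likeness were miR-199-y, from a cluster expressed in stromal cells, at a distance of 0.14, and miR-218-x at 0.17. The endothelial and stromal list had its lowest sum in control replicate 2 through miR-199-x, as given above, while 3 of its 10 RNAs peaked there.

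**Figure D2:**
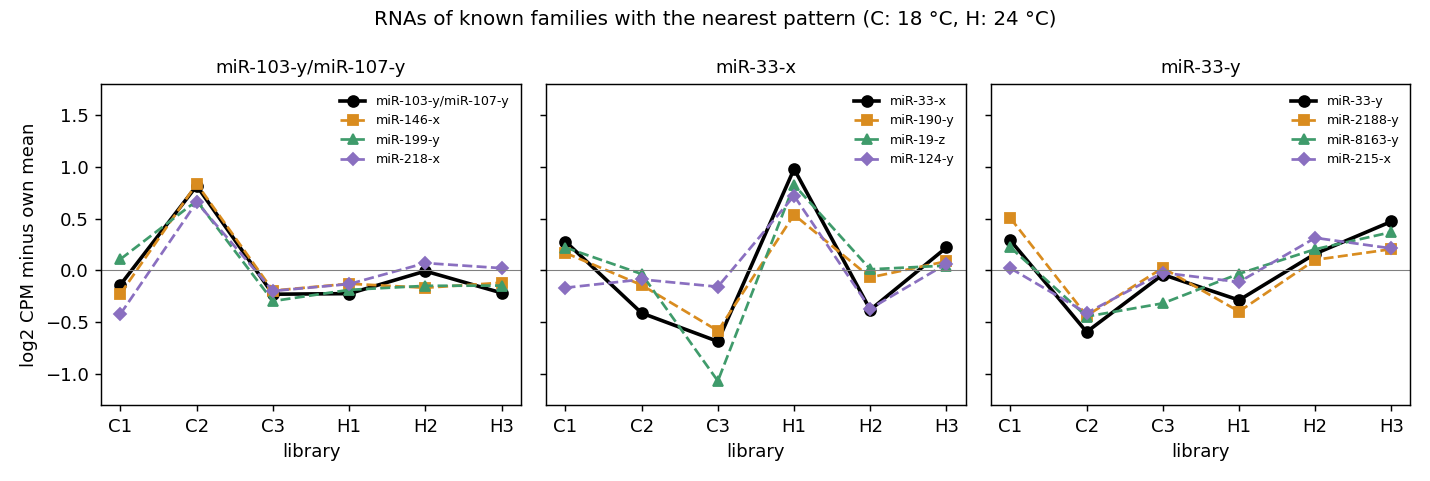
Log2 CPM minus each RNA's own mean (y axis) in the 6 libraries (C: 18 °C, H: 24 °C) for the shared miR-103-y/miR-107-y RNA, miR-33-x and miR-33-y (black) and the 3 RNAs of known families nearest to each (colours). Lines join the values of an RNA and imply no order of libraries. The left panel peaks in C2, the middle panel in H1, and the right panel has its lowest black points in C2 and H1.

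The partner strand miR-107-x was rare and varied far more. Its counts at 18 °C were 3, 322 and 6 (replicates 1 to 3), and at 24 °C they were 66, 23 and 28. The exact Poisson 95% intervals of the lowest counts were 0.619 to 8.77 for 3 and 2.20 to 13.1 for 6, and they cover counting error only. Normalized, the controls stood at 0.337, 22.5 and 0.60 CPM and the heat libraries at 4.23, 2.82 and 2.97 CPM. The heat libraries were close to each other and lay between the lone high control and both low controls, so the groups overlap. With all libraries the log2 fold change was -1.23 ± 1.35 (SE, 95% interval -4.39 to 1.93, edgeR adjusted p = 1.00). Without control replicate 2 it turned to 2.79, with an unadjusted p of 0.0015 and an edgeR adjusted p of 0.259 over 518 RNAs, and without heat replicate 1 as well it was 2.59 (edgeR adjusted p = 0.407). Control replicate 2 held 5.31 times the level of the next library, a ratio that only 3 of 242 RNAs of known families reached there, miR-107-x included.

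The share of miR-107-x in the sum of both strands separated the libraries in the same way. It was 0.0313% and 0.0594% in control replicates 1 and 3 (exact binomial 95% intervals 0.00645% to 0.0913% and 0.0218% to 0.129%) and 1.07% in control replicate 2 (0.954% to 1.19%). In heat replicates 1 to 3 it was 0.415%, 0.238% and 0.291%, with intervals from 0.151% at the lowest to 0.528% at the highest. The 3 heat intervals thus lie above those of control replicates 1 and 3 and below that of control replicate 2, and no direction by temperature follows from all 6 libraries. The sum holds the reads of miR-103-y too, since the shared RNA cannot be divided.

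miR-103-x, the strand named for the other precursor, was near the limit of detection. Its counts were 2, 16 and 0 at 18 °C and 4, 3 and 3 at 24 °C, or 28 in all. The highest count again fell in control replicate 2, with an exact Poisson 95% interval of 9.15 to 26.0. No entry of the files equals 1, so a count of 0 may stand for a single read, and no fold change is given.

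**Figure D3:**
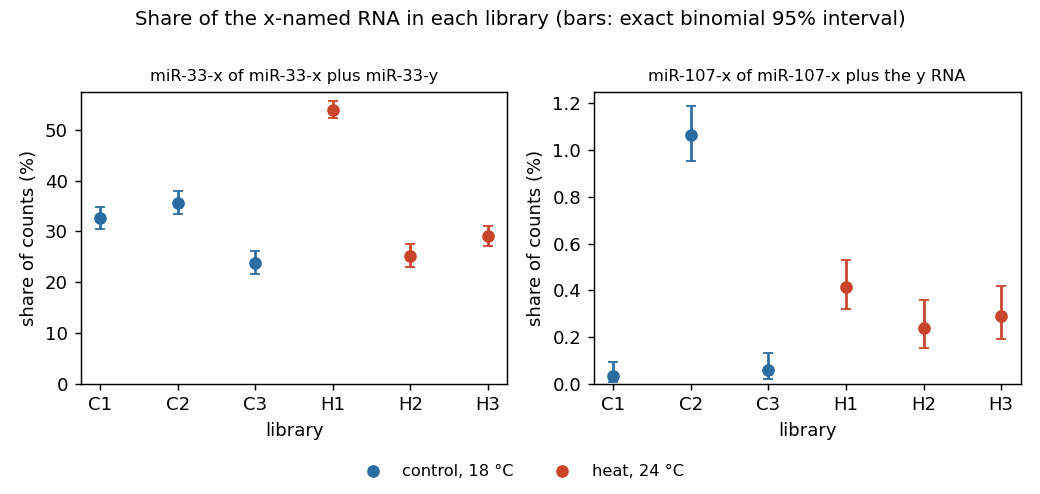
Share of counts (y axis, percent, from 0) of miR-33-x in miR-33-x plus miR-33-y (left) and of miR-107-x in miR-107-x plus the shared y RNA (right) in each library (C: 18 °C, H: 24 °C). Bars are exact binomial 95% intervals for counting error. H1 is at 54.0% on the left and C2 at 1.07% on the right, above the other 5 libraries of each panel.

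miR-33-x carries the seed known from the vertebrate miR-33 guide strand. Its counts were 615, 613 and 354 at 18 °C and 1749, 357 and 625 at 24 °C, or 69.1, 42.8 and 35.4 CPM against 112, 43.8 and 66.4 CPM. Heat replicate 1 was the high library, while heat replicates 2 and 3 lay inside the range of the controls. The means were 49.1 ± 17.7 CPM at 18 °C against 74.1 ± 34.8 CPM at 24 °C (SD, n = 3), and the fitted log2 fold change was 0.59 ± 0.44 (SE, with a 95% interval from -0.44 to 1.62, edgeR adjusted p = 1.00). Without heat replicate 1 the log2 fold change was 0.17, and without control replicate 2 as well it was 0.077. The interval with all libraries includes both no difference and a doubling, so neither can be set aside at this number of libraries.

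**Figure D4:**
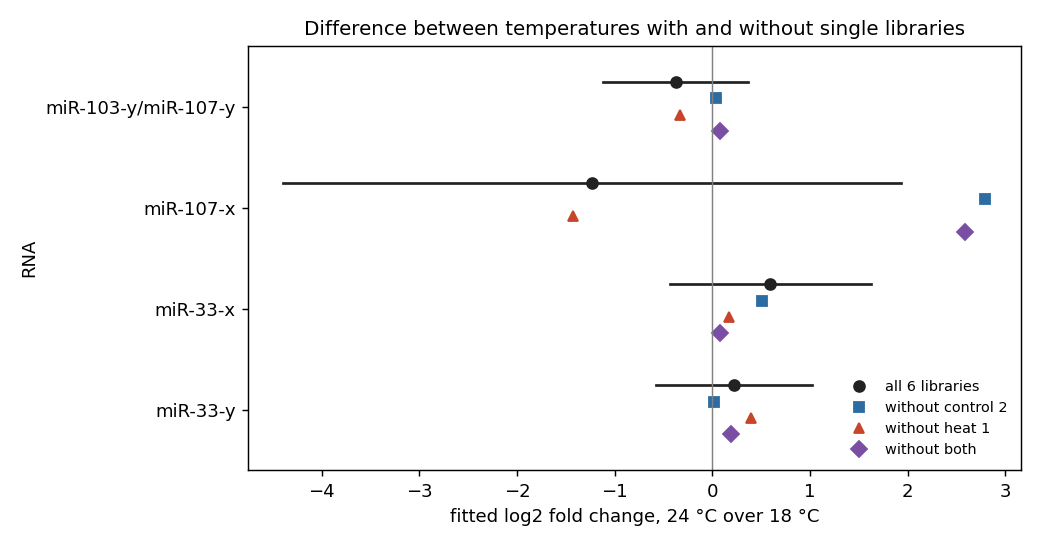
Fitted log2 fold change of 24 °C over 18 °C (x axis) for the 4 tested RNAs (y axis) with all libraries (black, bar: 95% interval) and without control replicate 2, heat replicate 1 or both. The value of miR-107-x turns from -1.23 to 2.79 without control replicate 2, and that of miR-33-x falls from 0.59 to 0.17 without heat replicate 1.

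In heat replicate 1 the level of miR-33-x was 1.62 times that of the next library. Among 242 RNAs of known families, 3 reached this ratio in that library, miR-33-x included, and 7 (2.89%) had a ratio over 1.5. The RNAs with the most similar pattern were miR-190-y at a distance of 0.26, miR-19-z, from the miR-17/92 clusters linked to proliferation, at 0.29, and the neuronal miR-124-y at 0.34. The median distance over 201 RNAs was 0.68. miR-124-y measured 24.3, 25.6 and 24.4 CPM in control and 44.8, 21.1 and 28.5 CPM in heat, also with its peak in heat replicate 1. The other 8 retina and neural RNAs did not peak there as a sum, with 38.7 CPM in heat replicate 1 against 80.5 CPM in control replicate 2 and 63.4 CPM in heat replicate 3.

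miR-33-y, the other strand of the miR-33 duplex, did not follow miR-33-x into heat replicate 1. Its counts were 1267, 1105 and 1132 in control and 1489, 1062 and 1521 in heat, or 142, 77.2 and 113 CPM against 95.5, 130.2 and 162 CPM. On the TMM scale the lowest libraries were control replicate 2 and heat replicate 1, those with the lowest miR-122-x, and the groups overlap. The other 8 hepatocyte RNAs did not follow among the controls, with sums of 69021, 80835 and 68266 CPM in replicates 1 to 3. Control replicate 2 and heat replicate 1 have the highest TMM factors, 1.21 and 1.22, which lower every CPM in them. Without these factors heat replicate 1 was not low for miR-33-y. It held 1489 of 12731533 counts of tested RNAs, and control replicate 3 held 1132 of 11091347. The means were 111 ± 32.6 CPM and 129 ± 33.0 CPM (SD, n = 3), and the fitted log2 fold change was 0.22 ± 0.34 (SE, with a 95% interval from -0.58 to 1.02, edgeR adjusted p = 1.00). Leaving out control replicate 2 gave 0.015, and leaving out heat replicate 1 gave 0.40. Nearest in pattern were miR-2188-y at a distance of 0.16, miR-8163-y at 0.17 and miR-215-x, a hepatocyte and gut miRNA in mammals, at 0.19.

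The balance between both strands of miR-33 differed between libraries by more than counting error. miR-33-x made up 32.7%, 35.7% and 23.8% of their sum at 18 °C (replicates 1 to 3), and at 24 °C it made up 54.0%, 25.2% and 29.1%. The exact binomial 95% interval was 52.3% to 55.7% in heat replicate 1, and the intervals of the other 5 libraries all ended below it. miR-33-y thus had the higher count in 5 of 6 libraries, and heat replicate 1 was the exception. Whether counts of different sequences reflect their amounts equally was not tested. The mean log2 ratio of x to y was -1.19 ± 0.43 at 18 °C and -0.87 ± 0.97 at 24 °C (SD, n = 3), a difference of 0.32 that became -0.24 without heat replicate 1. This ratio was chosen after its values were seen and is given without a test.

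Ratios within a library need no library size, and set both families against each other and against miR-122-x, by far the leading hepatocyte miRNA. miR-33-x amounted to 6.41%, 2.05% and 3.50% of the shared miR-103-y/miR-107-y RNA at 18 °C (replicates 1 to 3), and at 24 °C to 11.1%, 3.71% and 6.51%. The highest value was that of heat replicate 1 and the lowest that of control replicate 2, and the rest overlap. On the log2 scale the mean ratio was -4.80 ± 0.82 at 18 °C and -3.96 ± 0.79 at 24 °C (SD, n = 3), a difference of 0.84 with a two-sided exact permutation p = 0.2 (0.6 adjusted over 3 ratios, where 0.1 is the smallest unadjusted p that 3 against 3 can give). Without control replicate 2 the difference was 0.44, without heat replicate 1 it was 0.45, and without both it was 0.052.

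Against miR-122-x, the log2 ratio of miR-33-x differed by 0.53 between heat and control (-11.81 ± 1.00 against -12.33 ± 0.70, SD, n = 3, exact permutation p = 0.5, adjusted p = 0.75). Without heat replicate 1 this difference was -0.015. For the shared miR-103-y/miR-107-y RNA the ratio to miR-122-x was -7.85 ± 0.27 in heat and -7.53 ± 1.16 in control (SD, n = 3, difference -0.32, exact permutation p = 1, adjusted p = 1). Without control replicate 2, whose ratio of -6.20 stood above the -7.55 to -8.30 of the other libraries, the difference was 0.35. These ratios rise by construction where miR-122-x is low. Its lowest levels were in control replicate 2 and heat replicate 1, at 153602 and 189803 CPM against 270412 to 318306 CPM. The other 8 hepatocyte RNAs summed to 53276 CPM in heat replicate 1 and 80835 CPM in control replicate 2, against 68266 to 88497 CPM elsewhere. Heat replicate 1 was thus low on the TMM scale. Relative to control replicates 1 and 3, this shortfall was no larger than the difference in TMM factors, 1.22 against 0.921 and 0.901. The part of the hepatocyte share in these ratios was not tested.

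Other miRNAs tied to lipid and sugar metabolism, whose roles are known from mammals, gave no called member either. Among RNAs of families that act on cholesterol export and uptake, 20 of 20 were tested, with 7 fitted above 0 and 13 below and 0 called. Their median log2 fold change was -0.092, against -0.094 for all 476 RNAs and -0.14 for the 242 of known families. It became 0.052 when known families alone were fitted and 0.080 without control replicate 2. The median of all RNAs tested moved too, to -0.0065 and -0.042 in these fits. The most abundant were miR-26-x, miR-148-y and miR-27-y, with log2 fold changes of 0.32 ± 0.41, -0.15 ± 0.42 and -0.17 ± 0.30 (SE). Control replicate 2 stood apart for miR-26-x, at 22889 CPM against 51810 to 75384 CPM elsewhere. It also did so for miR-148-y, at 30859 CPM against 10742 to 21080 CPM. The lowest unadjusted p belonged to miR-106-y, with 5.88 ± 0.848 CPM at 18 °C against 2.86 ± 0.514 CPM at 24 °C (SD, n = 3, edgeR unadjusted p = 0.028, edgeR adjusted p = 1.00). It was rare, with 23 to 98 counts per library. The far more abundant miR-106-x/miR-17-x, at 213 CPM at 18 °C and 202 CPM at 24 °C, had a log2 fold change of -0.080 ± 0.27 (SE), and its groups overlap. Second by p was the erythroid miR-144-y, which lowers ABCA1 in mouse liver, with a log2 fold change of 0.46 ± 0.24 (SE). Heat libraries lay wholly below the controls for miR-106-y and miR-223-x and wholly above them for miR-144-y. miR-223-x had only 8 to 21 counts per library. Such separation in either direction was seen for 32 of all 476 RNAs (6.72%).

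For families tied to fatty acid synthesis and oxidation, 9 of 12 RNAs were tested, with 3 fitted above 0 and 6 below, a median of -0.068 and 0 called. The median was 0.071 with known families alone and 0.088 without control replicate 2, where that of all RNAs tested was -0.0065 and -0.042. miR-122-x, which sustains lipid synthesis in mouse liver, had a log2 fold change of -0.027 ± 0.33, miR-30-x of 0.017 ± 0.21 and miR-21-x of 0.034 ± 0.22 (SE). Those with the lowest p were miR-34-x at -0.80 ± 0.59 and miR-21-y at -0.53 ± 0.63 (SE). Control replicate 2 was the highest library for both, and the groups overlap. miR-34-x measured 2.58, 12.6 and 5.40 CPM in control and 3.91, 3.43 and 4.57 CPM in heat. miR-21-y measured 767, 1665 and 359 CPM in control and 1130, 381 and 422 CPM in heat.

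Among families that act on insulin and glucose, the group to which miR-103 and miR-107 belong by role, 11 of 12 RNAs were tested, with 9 fitted above 0 and 2 below, a median of 0.11 and 0 called. Over all 476 RNAs, 193 were fitted above 0 and 283 below, and over the 242 of known families 82 and 160. The median of the list ran from 0.0010 without control replicate 3 to 0.24 with known families alone. That of all RNAs tested was -0.099 and -0.0065 in these fits. The split was 7 above and 4 below without control replicate 1 or 3 and 6 above and 4 below without heat replicate 1. The islet miRNA miR-375-y stood at 106 ± 6.46 CPM at 18 °C and at 160.1 ± 27.9 CPM at 24 °C (SD, n = 3), which the fit put at a log2 fold change of 0.60 ± 0.27 (SE, edgeR adjusted p = 1.00). Its heat libraries lay wholly above the controls, a separation seen in either direction for 32 of all 476 RNAs (6.72%). The acinar miR-216-x stood at 85.2, 201 and 34.1 CPM at 18 °C and at 136, 37.5 and 12.3 CPM at 24 °C, and the 4 tested pancreas RNAs, miR-375-y among them, had 2 fitted above 0, 2 below and a median of -0.25. miR-29-x had a fitted value of 0.68 ± 0.55, and the abundant let-7-x, miR-126-y and miR-143-y had -0.13 ± 0.21, 0.033 ± 0.33 and -0.11 ± 0.24 (SE). miR-29-x was lowest in control replicate 2, with 66.1, 37.7 and 125 CPM at 18 °C and 56.0, 164 and 147 CPM at 24 °C. The more abundant miR-29-y, at 361 CPM at 18 °C and 415 CPM at 24 °C, had a fitted value of 0.20 ± 0.37 (SE).

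The neighbours with the shifted seed did not share the height of control replicate 2 as a group. miR-16-x measured 7372, 4696 and 5857 CPM in control and 6143, 5872 and 6041 CPM in heat, and miR-15-x 1647, 724 and 1460.3 CPM against 997, 1247 and 1301 CPM. On the TMM scale both were thus lowest in control replicate 2. miR-457-x, a fish miRNA of the same seed, was highest there, at 99.4, 139 and 105 CPM in control and 91.6, 79.2 and 100.2 CPM in heat. Of 8 RNAs in these families 5 were tested, with 1 fitted above 0 and 4 below, a median log2 fold change of -0.11 and 0 called. These 5 include the partner strands miR-15-y and miR-16-y, which lack the shifted seed. The tested RNAs with that seed had log2 fold changes of -0.11 ± 0.33 (miR-15-x), 0.011 ± 0.23 (miR-16-x) and -0.34 ± 0.28 (miR-457-x, SE).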

How the data were processed

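Small RNA counts of 6 liver libraries were used. Per the file headers, each deposited file gives a name, length, bases, a whole-number count and a TPM value, which was not used. The counts were used as deposited by the authors. Not given in the sources used here are the aligner, miRNA database, genome build and small RNA library preparation. Of 1685 distinct sequences, 404 have several names, and for 37 of these the counts differ; the name with the highest total was kept. Members and lists were chosen with earlier results of these data known.

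The test on all distinct RNAs used edgeR 4.0.16 under R 4.3.3, with TMM scaling, a count minimum of 10 in filterByExpr, robust quasi-likelihood estimation and Benjamini-Hochberg adjustment at 0.05. An SE is the fitted value divided by the root of F, and 95% intervals use the t distribution. Groups follow the sample titles. Counts per library summed to 9267658 to 12778484 over all names and to 9246606 to 12737365 over distinct RNAs. Intervals on counts and shares cover counting error only, since the files show no molecular identifiers and PCR copies of a read are not separate molecules. Ratios were compared with two-sided exact permutation tests (scipy 1.17.1). Duplexes were predicted with RNAduplex 2.7.2. The fit was checked on simulated counts. Figures used matplotlib 3.10.9.

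RNAs beside the members were named by rule: the 3 nearest in pattern among known families with at least 10 counts in every library, the neighbours in mean level, and per list the 3 most abundant and the 2 with the lowest p. Alternatives were DESeq2 1.42.0, its size factors, library totals alone, no filter, a minimum count of 20, every name as its own row, known families alone, no robust estimation, a replicate block and libraries left out. limma-voom 3.58.1 with quality weights, the ratio of both miR-33 strands and the ratio of a library to the highest of the others were chosen after seeing the data.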

Additional observations from a re-analysis of the deposited data

How the results depend on the processing

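The log2 fold changes of miR-33-x and miR-33-y kept their sign in all 17 alternatives, from 0.077 to 0.94 and from 0.015 to 0.45, and none of the tested members passed in any (lowest edgeR adjusted p = 0.259). Over libraries left out in turn, miR-33-x ran from 0.17 to 0.94, miR-33-y from 0.015 to 0.45, miR-103-y/miR-107-y from -0.52 to 0.036 and miR-107-x from -1.74 to 2.79. With both control replicate 2 and heat replicate 1 removed, the values were 0.081 for miR-103-y/miR-107-y and 2.59 for miR-107-x. For miR-107-x the sign also turned with limma-voom quality weights (1.37), which gave control replicate 2 the lowest weight, 0.311, and with the replicate block (1.10). DESeq2 gave miR-107-x no p-value.

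The ratio of miR-33-x to miR-103-y/miR-107-y ran from 0.44 to 1.26 over libraries left out, that of miR-33-x to miR-122-x from -0.015 to 0.97, that of miR-103-y/miR-107-y to miR-122-x from -0.70 to 0.35 and that of miR-33-x to miR-33-y from -0.24 to 0.66. Without both libraries together the latter 2 were 0.20 and -0.068. RNAs called numbered 0 with all alternatives of edgeR and limma except no filter, which called 6, none a member; DESeq2 called 1. The cause was not tested.

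Replicate numbers are shared between the groups, but nothing says that they pair the libraries. Deviations from the group means correlated at 0.037, -0.27 and 0.12 for numbers 1 to 3, where each needed 0.1. Of 6 libraries, 1 correlated best with its own number. A pairing was thus not seen, but with 3 libraries per group this check cannot exclude it. The replicate block called 0 RNAs, with log2 fold changes of 0.55 for miR-33-x, -0.30 for miR-103-y/miR-107-y and 0.23 for miR-33-y. With a median SE of 0.43 for known families, changes near 2-fold were mostly not detectable with 3 libraries per group.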
